A study of Mus musculus with 6 samples.

Results

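Gene expression was compared between pro-B leukaemia cultures that lacked zinc finger 4 of the transcription factor Ikaros and wild type cultures transformed by the same oncogene. The comparison used 4 of the 6 libraries of the study, 2 from Ikaros ZnF4-/- cells (here the ZnF4 mutant) and 2 from wt cells, and they were chosen by their genotype label. The remaining 2 libraries came from Ikaros ZnF1-/- cells (the ZnF1 mutant), which lack another finger of the same protein. All 6 cultures started as whole bone marrow of C57BL/6 mice that received a BCR-ABL-p185-IRES-YFP retrovirus at day 0, and polyadenylated RNA was sequenced after 14 days in vitro. The cells are labelled as transformed pro-B acute lymphoblastic leukaemia, and the labels do not say that YFP-positive cells were sorted from other marrow cells. The ages of the mice and the number of animals behind each culture are not stated, and the replicates are called biological. Of 22099 genes in the table, 11345 had at least 1 RPKM (reads scaled to transcript length and to the reads of the library) in at least 2 of the 6 libraries and were tested.

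Ikaros, encoded by Ikzf1, is a DNA-binding protein that lymphoid cells need to form and mature, and its gene is a frequent target of deletion in BCR-ABL-positive leukaemia. Its N-terminal zinc fingers contact DNA, its C-terminal fingers pair it with other Ikaros family proteins, and it works with chromatin remodellers that can silence or activate genes. In developing B cells Ikaros is known to help pre-B cells leave the cell cycle and to restrain adhesion to stroma and genes of earlier stages.

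The lost finger is shown beside finger 1 because the 3 genotypes differ in these short stretches. In the GENCODE transcript Ikzf1-204 (GRCm38, 8 exons, 515 residues), a search for the C2H2 zinc finger pattern found 6 fingers. Finger 4 lay in exon 6 (chr11:11758195-11758317, plus strand, 123 bases, coding) and took residues 203 to 224. Finger 1 lay in exon 4 (chr11:11748311-11748571, plus strand, 261 bases). Both are printed 5′ to 3′, with the codons of the cysteines and histidines that hold the zinc ion in capitals.
Ikzf1 finger 4, chr11:11758212-11758277: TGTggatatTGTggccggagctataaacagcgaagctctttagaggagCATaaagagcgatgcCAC
Ikzf1 finger 1, chr11:11748505-11748567: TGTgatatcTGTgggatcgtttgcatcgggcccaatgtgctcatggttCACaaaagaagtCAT

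The ZnF4 mutant cells still made Ikzf1 transcript, at a higher level than wt cells. The 2 wt libraries held 89.2 and 85.9 RPKM (replicate 1 and replicate 2, the order of every pair of values below), the ZnF4 mutant libraries 188.2 and 170.2 RPKM, and the ZnF1 mutant libraries 101.5 and 116.7 RPKM. Both ZnF4 mutant values lay above all other libraries. The log2 difference from wt was 1.02 (SE 0.16, limma adjusted p = 0.045). The table has 1 row for Ikzf1 with exons outside the deleted finger, so its level does not check the genotype label. Of 22 tested members of a list of Ikaros family genes and chromatin partners, Ikzf1 was the 1 called higher and 0 were called lower by limma. A fit that has the replicate number as a block called 2 higher and 2 lower. Among all tested genes, 1.43% were called higher and 1.3% lower (8.02% and 7.92% with the block). The list's median log2 difference was 0.07, against 0.04 over all tested genes. Ikzf3, the Ikaros relative Aiolos, was at 50.9 and 59.9 RPKM in wt and 54.4 and 52.1 RPKM in the ZnF4 mutant, and Chd4, the ATPase of the NuRD remodelling complex, was at 138.1 and 148.1 RPKM in wt and 144 and 143.8 RPKM in the ZnF4 mutant. The groups overlapped in both genes. The call of Ikzf1 sat close to the threshold of 0.05 and was lost when genes without any filter on low values were added (adjusted p = 0.052), when the libraries were scaled to the same median (0.053) or by quantiles (0.075), and without any single library, where the log2 difference was 0.95 to 1.10.

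Pro-B transcripts were abundant in both groups. Transcripts of 11 pro-B genes, among them Cd79a, Igll1, Pax5 and Ebf1, summed to 3019 and 2306 RPKM in wt and to 3375 and 2248 RPKM in the ZnF4 mutant. The sum covers changes in both directions. Of its members, Rag1 was called higher by limma, and Dntt and Ptprc were called lower with the replicate block. Pax5, the factor that commits cells to the B lineage, was at 140.8 and 126 RPKM in wt and 174.1 and 128.1 RPKM in the ZnF4 mutant. Ebf1, which acts beside it, was at 211.1 and 187.2 RPKM in wt and 204.3 and 163.4 RPKM in the mutant. The groups overlapped for Ebf1 and for Pax5. Traces of other marrow cells were present. Granulocyte markers summed to 547 and 10.9 RPKM in wt and to 10.7 and 62.6 RPKM in the ZnF4 mutant, so wt replicate 1 stood apart from the other 3 libraries. Monocyte and macrophage markers summed to 352.6 and 422.8 RPKM in wt and to 395.4 and 449.7 RPKM in the mutant. Of 18 T and NK cell markers, 6 were listed at 0 in all 6 libraries, Cd3e and Ncr1 among them, and the rest summed to 31.7 to 61 RPKM in the 4 libraries. Much of these sums came from 1 gene, Lck, at 46.2 and 27.4 RPKM in wt and 18.1 and 15 RPKM in the ZnF4 mutant. In bulk RNA, fewer cells of a type and less RNA per cell cannot be told apart.

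**Figure D1:**
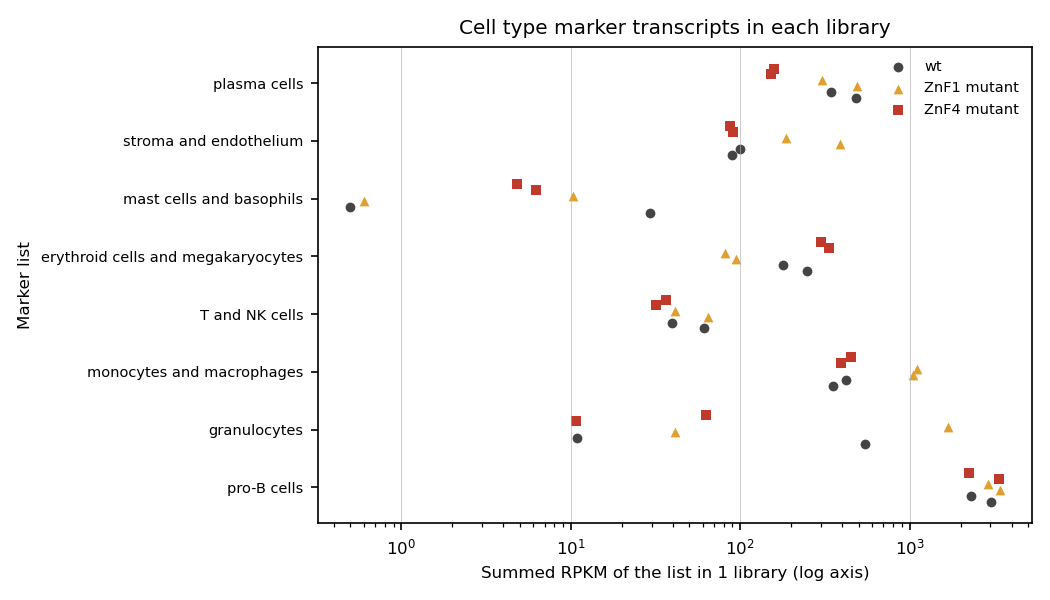
Summed RPKM of the transcripts of each marker list (log axis), with 1 point per library and the 3 genotypes in colour. Pro-B transcripts lay between 2248 and 3396 RPKM in the 6 libraries, granulocyte transcripts were 547 RPKM in wt replicate 1 and 10.9 RPKM in wt replicate 2, and plasma cell list transcripts were 152.1 and 158.7 RPKM in the ZnF4 mutant against 482.4 and 342.2 RPKM in wt.

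The ZnF4 mutant differed from wt in 309 genes, 2.72% of those tested (limma, Benjamini-Hochberg adjusted over all 11345 genes, threshold 0.05). Of these, 162 were higher (1.43%) and 147 were lower (1.3%). With the replicate number as a block, 1809 genes were called (15.9%), 910 higher (8.02%) and 899 lower (7.92%), and these held all 309. The differences were large: 292 of the 309 exceeded 1 on the log2 scale, 108 exceeded 2 and 35 exceeded 3. In all 309 genes the ZnF4 mutant and wt values did not overlap and both replicate pairs moved the same way, which holds for 31.7% of all tested genes in the case of values that do not overlap. A gene near 0 in wt could pass the filter only through mutant libraries and had little room to fall. On the log2 scale, a gene could fall far only from a sizeable wt level. The starting levels therefore describe the calls and are not a result. Of the 162 higher genes, 73 had a wt mean under 1 RPKM and 19 had one of at least 10 RPKM. Of the 147 lower genes, 70 had a wt mean of at least 10 RPKM, and 57 were under 1 RPKM on average in the mutant. Each refit on 5 libraries called fewer genes, 17 without wt replicate 1, 11 without wt replicate 2, 12 without ZnF4 mutant replicate 2, 87 and 88 without ZnF1 mutant replicate 1 and 2, and 0 without ZnF4 mutant replicate 1 (968 at an unadjusted p under 0.05).

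**Figure D2:**
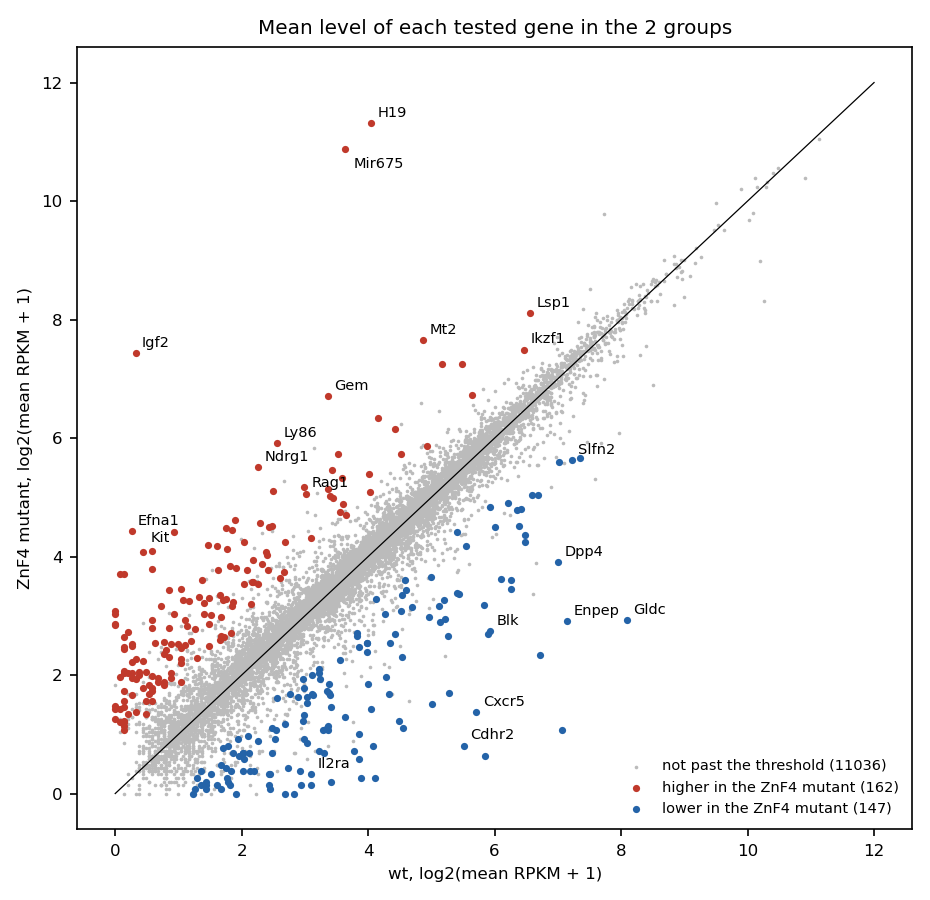
Mean level of each tested gene, log2(mean RPKM + 1), in wt (horizontal axis) and in the ZnF4 mutant (vertical axis), with 1 point per gene and equal levels on the line. The 162 genes called higher lie mostly at low wt levels, with H19 and Mir675 far above the line, and the 147 called lower include abundant wt transcripts such as Gldc, Enpep and Dpp4.

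**Figure D3:**
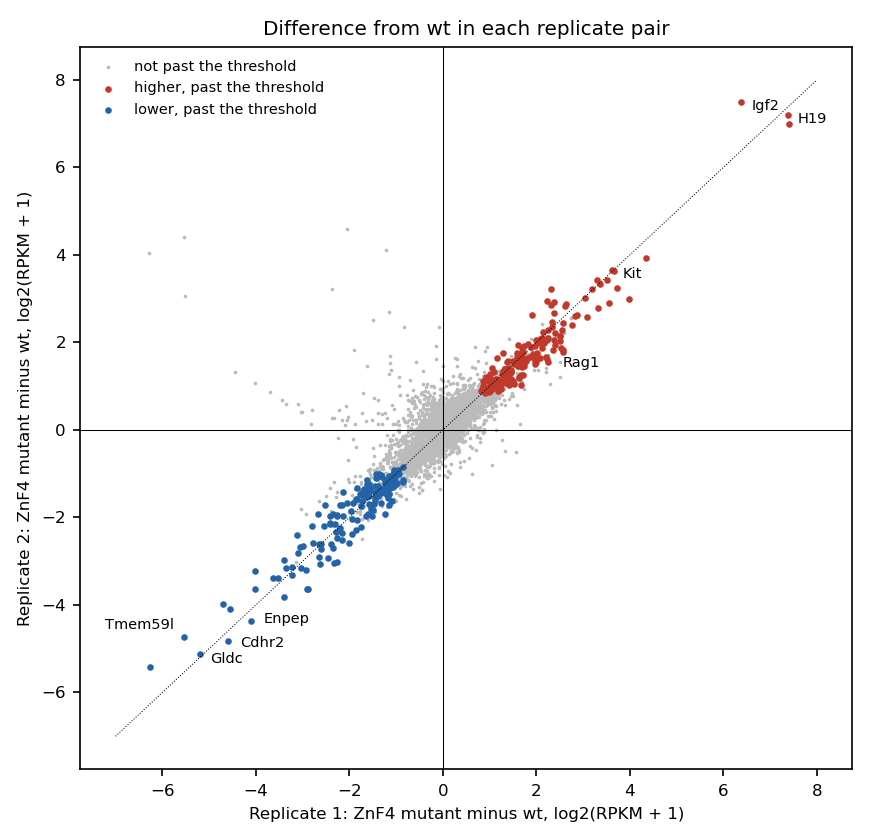
Difference of the ZnF4 mutant from wt, log2(RPKM + 1), in replicate 1 (horizontal axis) and in replicate 2 (vertical axis), with 1 point per tested gene. All 309 called genes lie at the lower left or the upper right, near the line of equal differences, and across 11345 genes the differences of the 2 pairs had the same sign in 73.57%.

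The largest rise was at the imprinted H19 and Igf2 locus. H19, a noncoding RNA that is normally expressed from the maternal allele, held 13.3 and 17.7 RPKM in wt, 2370 and 2739 RPKM in the ZnF4 mutant and no more than 6.8 RPKM in ZnF1 mutant libraries (0.4 and 6.8). Its log2 difference from wt was 7.28 (SE 0.78, limma adjusted p = 0.02), a ratio of means of 165. Igf2, a fetal growth factor that is normally expressed from the paternal allele, held 0.1 and 0.4 RPKM in wt and 90.8 and 253.1 RPKM in the ZnF4 mutant. The antisense transcript Igf2as was listed at 0 in both wt libraries and at 4 and 8.3 RPKM in the ZnF4 mutant. All of these values lay above every wt and ZnF1 mutant library. The rise of Igf2 was 6.94 (adjusted p = 0.0094), and the size of the value differed between the ZnF4 mutant libraries. H19 hosts the precursor of miR-675, and the Mir675 row, which overlaps H19 and cannot be told apart from it in these values, rose from 13.7 and 9.2 RPKM to 2468 and 1306 RPKM. The row measures polyadenylated RNA over the hairpin and not the mature miRNA, whose 2 arms are printed here (RefSeq, GRCm38.p6, 5′ to 3′) with the seed, bases 2 to 8, in capitals.
mmu-miR-675-5p, chr7:142577112-142577133, minus strand: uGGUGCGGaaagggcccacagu
mmu-miR-675-3p, chr7:142577078-142577099, minus strand: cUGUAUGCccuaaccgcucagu

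Of 16 tested members of a list of imprinted genes, 3 were called higher and 0 lower. Their median log2 difference was 0.04, equal to that of all tested genes. The share over all tested genes was 1.43% higher and 1.3% lower (8.02% and 7.92% with the replicate block). Igf2 passed the filter only through the ZnF4 mutant libraries. The third, besides H19 and Igf2, was Grb10, an adaptor that dampens insulin and IGF receptor signals, at 4.1 and 4.3 RPKM in wt and 15.2 and 16.6 RPKM in the ZnF4 mutant (log2 difference 1.70, adjusted p = 0.012). With the block, 5 were higher and 3 were lower. The 5 included Igf2bp3, which codes for an RNA-binding protein and is in the list although it is not an imprinted gene. The lower ones included Igf2r, the receptor that clears IGF2, at 10.9 and 14.5 RPKM in wt and 6.4 and 8.1 RPKM in the ZnF4 mutant (adjusted p = 0.30, or 0.0051 with the block).

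**Figure D4:**
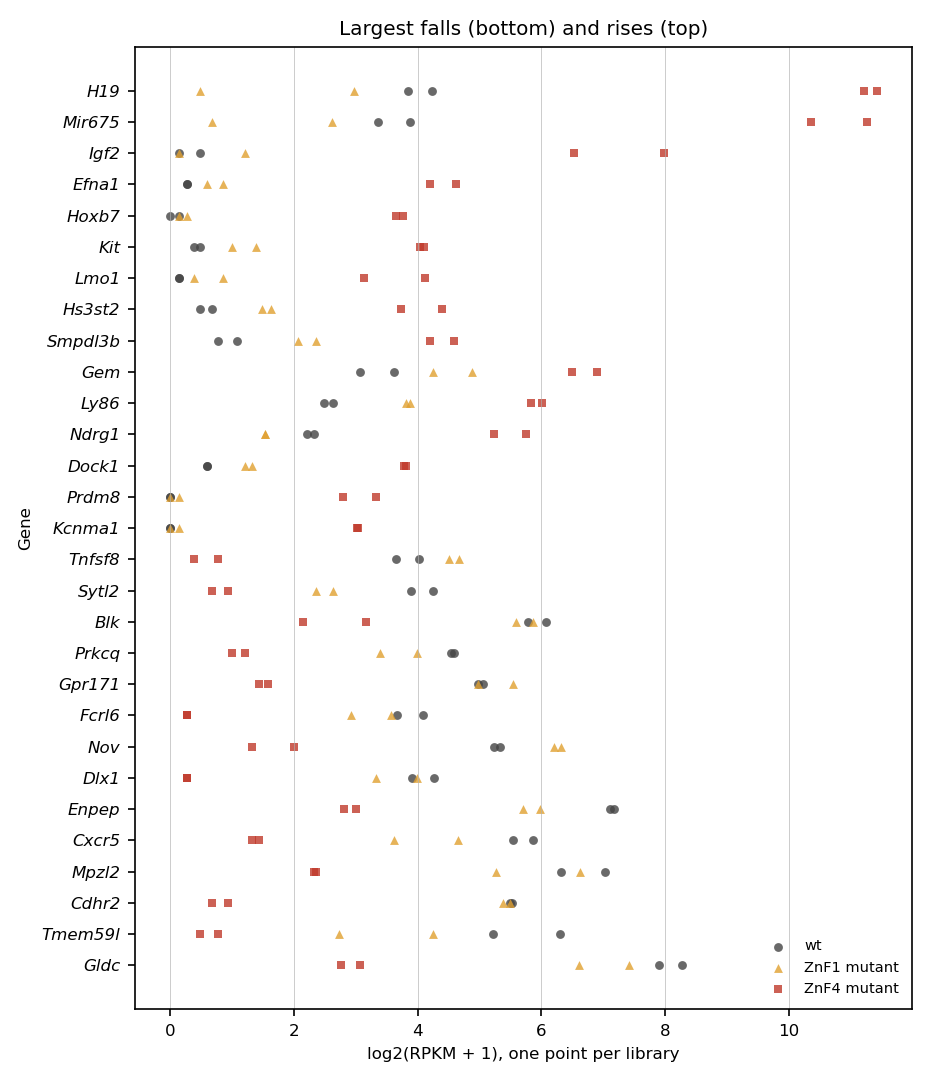
Level of each gene in each library, log2(RPKM + 1), for the 15 largest rises (top) and 14 of the 15 largest falls (bottom) among called genes with a gene name whose higher group averaged at least 5 RPKM. The ZnF4 mutant points stand apart from both wt points in every gene, as the choice of the genes requires, and the ZnF1 mutant points lie near wt in Cdhr2, Blk and Gpr171 and between the groups in Ly86, Gem and Sytl2.

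Kit and Efna1, both under 1 RPKM in wt, were among the next largest rises. Kit, the receptor for stem cell factor on early progenitors, held 0.4 and 0.3 RPKM in wt, 16.2 and 15.4 RPKM in the ZnF4 mutant, and 1 and 1.6 RPKM with finger 1 lost (log2 difference 3.64, adjusted p = 0.0049). Efna1, a membrane-bound ligand of Eph receptors, held 0.2 RPKM in both wt libraries and 23.5 and 17.4 RPKM in the ZnF4 mutant (4.15, adjusted p = 0.0047). The replicates were close and the groups far apart in both genes. Epha5, an Eph receptor, rose from a wt mean of 0.05 RPKM to 1.7 RPKM. Of 6 tested ephrins and Eph receptors, 2 were called higher and 0 lower, and the median log2 difference was 0.81. Over all tested genes, 1.43% were called higher and 1.3% lower (8.02% and 7.92% with the replicate block). Efna1 and Epha5 passed the filter only through the ZnF4 mutant libraries, so the filter favours this count and this median. Of 14 tested early progenitor genes, Kit was the 1 called higher, while Ly6d, a surface protein of B-committed progenitors, and Mycn, a MYC family factor, were the 2 called lower (2 higher and 5 lower with the block). Ly6d held 73.9 and 43.1 RPKM in wt and 7 and 4 RPKM in the ZnF4 mutant, and Mycn fell from 28.2 and 16.2 RPKM to 4.5 and 3.4 RPKM. Flt3 and Cd34, a cytokine receptor and a surface protein of early progenitors, did not pass the filter on low values. The list's median was -0.24.

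Of 54 homeobox genes, 11 were tested, 4 of them called higher and 1 lower, with a median of 0.04. The shares over all tested genes were 1.43% and 1.3% (8.02% and 7.92% with the replicate block). Hoxb6, Hoxb7 and Hoxb8 passed the filter only through the ZnF4 mutant libraries. Hoxb7 held 0 and 0.1 RPKM in wt and 11.6 and 12.6 RPKM in the ZnF4 mutant, Hoxb8 was listed at 0 in both wt libraries and at 7.5 and 5 RPKM in the mutant, and Hoxb6 held 0.2 RPKM in both wt libraries and 4.6 and 2.7 RPKM in the mutant. These 3 genes are neighbours in the HoxB cluster and code for patterning factors that are also active in blood progenitors. Hoxb9 was listed at 0 in all 6 libraries, and Hoxa9 stayed at or under 0.3 RPKM and was not tested. Pbx3, a partner of Hox proteins, rose from 0.9 and 0.7 RPKM to 3.9 and 4 RPKM. In the other direction Dlx1, a homeobox factor best known from forebrain, fell from 18.3 and 14 RPKM to 0.2 RPKM in both mutant libraries (log2 difference -3.83, adjusted p = 0.007), and its antisense transcript Dlx1as fell beside it, by 2.75 on the log2 scale. Lmo1, a LIM-only adaptor that acts as an oncogene in T cell leukaemia, held 0.1 RPKM in both wt libraries and 16.4 and 7.8 RPKM in the ZnF4 mutant (3.49, adjusted p = 0.018). It too passed the filter only through the ZnF4 mutant, and was the 1 gene called of 8 tested LIM-only and partner regulators (2 higher and 1 lower with the block).

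Several surface proteins that mark stages of B cell development fell, while no transcription factor of the B lineage list was called. Of 22 tested B lineage transcription factors, 0 were called in either direction by limma, and the list's median was -0.01 (1 higher and 4 lower at an unadjusted p under 0.05). With the block 1 was higher and 5 were lower, among them Bach2, a repressor active in pre-B cells, at 27.8 and 25.6 RPKM in wt and 17.4 and 13.7 RPKM in the mutant (adjusted p = 0.12, or 0.01 with the block), and Pou2af1, an octamer coactivator, at 493.4 and 414.6 RPKM in wt and 334.8 and 269.8 RPKM in the mutant (0.37, or 0.0095 with the block). Of 25 tested surface proteins that mark B cell stages, 6 were called lower and 1 higher, with a median of -0.20 (5 higher and 10 lower with the block). Among all tested genes, 1.3% were called lower and 1.43% higher (7.92% and 8.02% with the block). Enpep, the aminopeptidase known as BP-1 that appears on late pro-B cells, fell from 136.7 and 144 RPKM to 7 and 6 RPKM (log2 difference -4.24, adjusted p = 0.0039). Bst1, the stromal growth antigen BP-3, fell from 89.7 and 87.5 RPKM to 16.8 and 22.3 RPKM. Il2ra, the CD25 chain that pre-B cells carry, fell from 7.1 and 8 RPKM to 0.3 and 0.2 RPKM, and the ZnF1 mutant held 26.6 and 24 RPKM. These genes had no overlap between the ZnF4 mutant and any other library. Cd2, an adhesion receptor, fell from 55.3 and 56.2 RPKM to 10.2 and 6 RPKM, Fcrl6, an Fc receptor-like protein, from 11.7 and 16 RPKM to 0.2 RPKM in both libraries, and Cd72, an inhibitory coreceptor, from 40.1 and 43 RPKM to 21.6 and 18.8 RPKM. The 1 member called higher was Cd180, a Toll-like receptor relative of B cells, which rose from 8.8 and 10.9 RPKM to 30.5 and 31.1 RPKM. Its binding partner Ly86, or MD-1, rose from 5.2 and 4.6 RPKM to 63.1 and 55.7 RPKM (3.36, adjusted p = 0.0039).

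Of 15 tested recombination and end-joining genes, Rag1 rose and Lig4 fell. Rag1, the recombinase that cuts antibody gene segments, rose from 5.4 and 8.7 RPKM to 31.6 and 33.3 RPKM (log2 difference 2.08, adjusted p = 0.023). Rag2, its partner, held 4.4 and 8.6 RPKM in wt and 14.1 and 16.1 RPKM in the mutant (adjusted p = 0.20, or 0.011 with the block). Lig4, the ligase that seals the breaks, fell from 9.6 and 11.8 RPKM to 3.6 and 3.9 RPKM (-1.29, adjusted p = 0.029). Wt and mutant values did not overlap in these 3 genes, which also holds for 31.7% of all tested genes. Dntt, the terminal transferase that adds bases at the junctions, held 189.2 and 161.4 RPKM in wt and 79.4 and 40.6 RPKM in the mutant (adjusted p = 0.14, or 0.0058 with the block), and Xrcc6, the Ku70 subunit that binds DNA ends, 86.8 and 85 RPKM in wt and 47.8 RPKM in both mutant libraries (0.097, or 0.0095 with the block). In the list of 15, 1 was called higher and 1 lower, with a median of 0.04, equal to that of all tested genes (2 higher and 3 lower with the block). The background over all tested genes was 1.43% higher and 1.3% lower (8.02% and 7.92% with the block).

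Against 1.3% of all tested genes called lower and 1.43% higher (7.92% and 8.02% with the block), the pre-B cell receptor list had a median of -0.14. In it, 1 of 23 tested genes was called lower and 0 higher (3 higher and 4 lower with the block). That gene was Blk, a Src family kinase of B cells, which fell from 66.2 and 54.1 RPKM to 8 and 3.4 RPKM (log2 difference -3.27, adjusted p = 0.021). The receptor itself kept high levels in both groups: Igll1, the lambda5 surrogate light chain, was at 817.5 and 621.6 RPKM in wt and 1201 and 801.4 RPKM in the mutant, and Vpreb1, its partner, at 332.5 and 162.2 RPKM in wt and 365.7 and 173.4 RPKM in the mutant. The wt and mutant values of both overlapped. Other signalling proteins of lymphocytes, named after their values were seen, fell as well. Prkcq, protein kinase C theta, fell from 22.2 and 22.9 RPKM to 1 and 1.3 RPKM, and Prkch, protein kinase C eta, from 91.3 and 73.4 RPKM to 21.3 and 22.3 RPKM. Lax1, an adaptor that dampens antigen receptor signals, fell from 39.8 and 35 RPKM to 5.7 and 4.9 RPKM, and Dgka, which removes the lipid messenger that activates protein kinase C, from 97 and 94.4 RPKM to 31.6 and 32.3 RPKM. Camk2d, a calcium and calmodulin-dependent kinase, fell from 123.2 and 133.3 RPKM to 45.5 and 49.4 RPKM, and Camk2b, its relative, from 6.9 and 5.3 RPKM to a listed 0 in both mutant libraries. Nfatc2, a calcium-activated transcription factor, held 3.5 and 3.2 RPKM in wt and 0.7 and 0.5 RPKM in the mutant.

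Mtor and Bcl2 fell, and the cytokine receptor, STAT5 target and p53 target lists had 2, 1 and 0 members called lower by limma. For comparison, 1.3% of all tested genes were called lower and 1.43% higher (7.92% and 8.02% with the block). Mtor, the kinase that couples nutrients to growth and which was also named after its values were seen, fell from 48.2 and 42.9 RPKM to 16.9 and 17.1 RPKM (log2 difference -1.37, adjusted p = 0.019). Bcl2, which blocks apoptosis, fell from 15.9 and 13.6 RPKM to 5.5 and 4.1 RPKM (-1.45, adjusted p = 0.037) and was the 1 gene called of 14 tested in the BCL2 family (1 higher and 3 lower with the block). Cytokine receptors had 21 of 26 tested members with a lower mean in the mutant, 2 of them called, 0 called higher, and a median of -0.32 (11 lower and 0 higher with the block). The 2 were Il2ra and Ifngr1, a chain of the interferon gamma receptor, at 85.3 and 82.8 RPKM in wt and 24.9 and 28.8 RPKM in the mutant. The STAT5 target list holds mostly genes regulated downstream of cytokine receptors and BCR-ABL, and also Stat5a and Stat5b themselves. It had a median of -0.36 over 18 tested members, with Il2ra the 1 called lower and 0 called higher. With the block, 8 were lower, Stat5a and Stat5b among them, and 0 higher. Pim1, a survival kinase of that list, was at 162.4 and 105.6 RPKM in wt and 70.7 and 47.9 RPKM in the mutant (adjusted p = 0.20, or 0.0017 with the block). p53 targets had 16 of 22 tested members with a lower mean, a median of -0.26 and 0 called by limma (1 higher and 5 lower at an unadjusted p under 0.05, 1 higher and 9 lower with the block). Cdkn1a, a cell cycle inhibitor in both lists, was at 164.7 and 83.4 RPKM in wt and 73.6 and 27.5 RPKM in the mutant (0.49, or 0.007 with the block), with replicate 2 lower than replicate 1 in both groups.

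Of the DNA replication and mitosis lists no gene was called. DNA replication genes had 34 of 36 tested members with a higher mean in the ZnF4 mutant and a median log2 difference of 0.26, and mitosis genes had 35 of 38 with a higher mean and a median of 0.21, against 0.04 for all tested genes. In both lists 0 were called by limma (0 of the replication genes and 1 of the mitosis genes, higher, at an unadjusted p under 0.05), and with the block 8 of 36 and 4 of 38 were called higher and 0 lower, against 8.02% of all genes called higher. Rfc4, a clamp loader subunit, was at 29.2 and 34.6 RPKM in wt and 38.2 and 45.6 RPKM in the mutant (adjusted p = 0.52, or 0.043 with the block). Prc1, which bundles microtubules of the dividing cell, was at 43.3 and 48.1 RPKM in wt and 60 and 64.8 RPKM in the mutant (0.30, or 0.015 with the block). Ccnd1, the cyclin that starts the cycle with CDK4 or CDK6, was at 9.5 and 8.9 RPKM in wt and 38.7 and 29.1 RPKM in the mutant (log2 difference 1.76, adjusted p = 0.061, or 0.0044 with the block). Mutant values lay above wt values in the 3 genes, as they did in 17.8% of all tested genes. ERK feedback genes, which the RAS and MAP kinase pathway induces, had 2 of 27 tested members called higher and 0 lower, with a median of 0.27 (7 higher and 0 lower with the block). Among all tested genes, 1.43% were called higher (8.02% with the block). The 2 were Spry4, an inhibitor of that pathway, from 0.8 and 0.7 RPKM to 5 and 3.7 RPKM, and Dusp4, a phosphatase that inactivates ERK, from 1.6 and 0.9 RPKM to 10.6 and 6.5 RPKM. Gem, a small GTPase of the RAS superfamily, rose from 11.2 and 7.4 RPKM to 118.7 and 89 RPKM (3.36, adjusted p = 0.013).

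**Figure D5:**
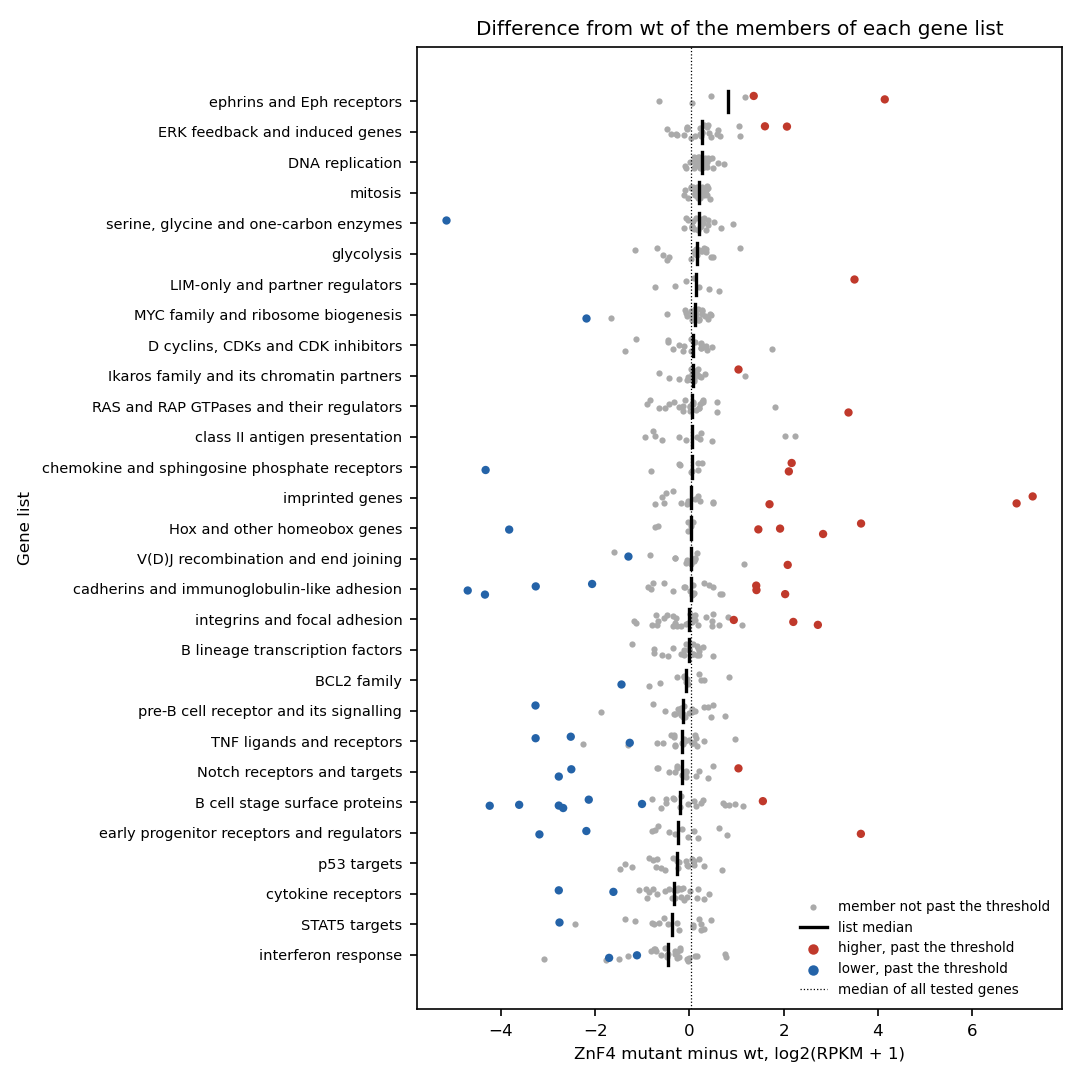
Difference of the ZnF4 mutant from wt, log2(RPKM + 1), for each tested member of each pathway and family list (marker lists of cell types are not drawn), with the list median as a bar and the median of all tested genes as a dotted line. Medians run from -0.46 in the interferon response to 0.81 in ephrins and Eph receptors, where Efna1 and Epha5 passed the filter only through the ZnF4 mutant. The DNA replication and mitosis points form narrow groups that hold no called gene.

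Adhesion and homing genes were called in both directions. Ptk2, the focal adhesion kinase, rose from 1.6 and 1.9 RPKM to 15 and 19.6 RPKM (log2 difference 2.73, adjusted p = 0.0075). Ctnnd1, or p120 catenin, rose from 13.8 and 19.7 RPKM to 84.8 and 74.8 RPKM, and Ctnna1, or alpha-catenin, from 28.5 and 30.4 RPKM to 55.5 and 59.4 RPKM. These were the 3 called of 32 tested genes in a list of integrins, focal adhesion proteins and catenins, and 2 of the 3 are catenins. In it 0 were called lower and the median was -0.01 (5 higher and 6 lower with the block). The share over all tested genes was 1.43% higher and 1.3% lower (8.02% and 7.92% with the block). Of 24 tested cadherins and immunoglobulin-like adhesion genes, 3 were called higher and 4 lower (3 and 7 with the block). Emb, or embigin, rose from 9.8 RPKM in both wt libraries to 42.1 and 44.2 RPKM. Cdhr2, a protocadherin, fell from 45 and 44 RPKM to 0.9 and 0.6 RPKM (-4.71, adjusted p = 0.0039), Mpzl2, an adhesion protein of thymic epithelium, from 129.7 and 79 RPKM to 4 and 4.1 RPKM, and Epcam, an epithelial adhesion protein, from 21.6 and 21.4 RPKM to 1.2 and 1.5 RPKM. Values of the 2 groups were far apart in these falls. Cdh5, the cadherin of endothelial cells, was listed at 0 in both wt libraries and at 2.1 and 1.3 RPKM in the mutant, and passed the filter only through the ZnF4 mutant libraries. The 20 stromal and endothelial markers together summed to 89.2 and 100.3 RPKM in wt and 91 and 87.5 RPKM in the mutant. Among homing receptors, Cxcr5, which guides B cells to follicles, fell from 57.5 and 45.4 RPKM to 1.5 and 1.7 RPKM (-4.33, adjusted p = 0.0094), while the sphingosine phosphate receptors S1pr1 and S1pr3, which guide cells out of tissues, rose from 3 and 3.2 RPKM to 22.6 and 13.4 RPKM and from 1.1 and 0.7 RPKM to 8.1 and 6.3 RPKM.

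Gldc and Tmem59l were among the largest falls. Gldc, the decarboxylase that starts glycine breakdown in mitochondria, fell from 307.1 and 236.9 RPKM to 7.4 and 5.8 RPKM (log2 difference -5.16, adjusted p = 0.0067), a wt mean 41.2 times the mutant mean. It was the 1 called of 22 tested serine, glycine and one-carbon enzymes, of which 18 had a higher mean in the mutant, with a median of 0.20 (4 higher and 1 lower with the block). Tmem59l, a membrane protein, fell from 77.4 and 36.2 RPKM to 0.7 and 0.4 RPKM (-5.13, adjusted p = 0.022). Its wt replicates differed by over the size of the lower value, yet lay far above the mutant. Nov, a matricellular CCN protein, fell from 39.2 and 36.5 RPKM to 1.5 and 3 RPKM. The TNF family ligand Tnfsf8, or CD30 ligand, fell from 11.6 and 15.2 RPKM to 0.7 and 0.3 RPKM, Ltb, or lymphotoxin beta, from 78.1 and 57.6 RPKM to 14.5 and 8.1 RPKM, and Tnfsf10, or TRAIL, from 6.3 and 6.5 RPKM to 1.7 and 2.5 RPKM. They were 3 lower and 0 higher of 25 tested TNF ligands and receptors (1 higher and 7 lower with the block). For all tested genes the shares were 1.3% lower and 1.43% higher (7.92% and 8.02% with the block). The interferon response list had 25 of 29 tested members with a lower mean and the lowest median of the plotted lists, -0.46, with 2 called lower and 0 higher (2 higher and 6 lower with the block). The called ones were Gbp7, a guanylate binding protein, at 141.6 and 183 RPKM in wt and 38.8 and 61 RPKM in the mutant, and Ddx58, the RNA sensor RIG-I, at 8.1 and 8.5 RPKM in wt and 3.5 and 3.1 RPKM in the mutant.

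Among abundant called genes, Lsp1, an actin-binding protein of leukocytes, rose from 100.7 and 86.8 RPKM to 309.7 and 241.9 RPKM, and Mt2, a metal-binding metallothionein, from 34.9 and 21.5 RPKM to 263 and 138.7 RPKM. Igfbp4, which binds insulin-like growth factors, rose from 50.1 and 37.2 RPKM to 164.9 and 138.4 RPKM, and Rdh10, which makes retinaldehyde, from 39 and 30.9 RPKM to 168.3 and 132.8 RPKM. Slfn2, a Schlafen protein tied to lymphocyte quiescence, fell from 156.5 and 138.8 RPKM to 47.4 and 49.8 RPKM. In each of these 5 genes both mutant values were beyond both wt values, as in all 309 called genes. Of the plasma cell list, Xbp1, a factor of secretory cells, was at 134.2 and 100.9 RPKM in wt and 36.4 and 33.5 RPKM in the mutant (adjusted p = 0.07, or 0.0047 with the block).

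The 2 finger mutants were compared directly to ask where loss of finger 4 differed from loss of finger 1. The ZnF4 mutant differed from the ZnF1 mutant in 609 genes (5.37%), 183 higher (1.61%) and 426 lower (3.75%), and in 3979 with the block (35.1%), 1803 higher (15.9%) and 2176 lower (19.2%). Higher genes were thus a larger share of the calls with the block than without. This contrast uses the same ZnF4 mutant libraries as the contrast with wt. Its count was 1 without either ZnF1 mutant library, 0 without ZnF4 mutant replicate 1 (1674 at an unadjusted p under 0.05), 9 without ZnF4 mutant replicate 2, and 230 and 262 without wt replicate 1 and 2. H19 was higher than in the ZnF1 mutant by 9.59 on the log2 scale (limma adjusted p = 0.011), Kit by 2.88 (0.0082), Hoxb7 by 3.51 (0.0053) and Ly86 by 2.07 (0.01). Lower than in the ZnF1 mutant were Il2ra, with a log2 difference of -4.39 (adjusted p = 0.0031), Cdhr2 with -4.63 (0.0031), Blk with -3.08 (0.021) and Mtor with -1.80 (0.011). For other genes that changed against wt, the difference between the mutants did not pass the test, which does not show equal levels. The ZnF1 mutant held 29.2 and 35.9 RPKM of Rag1, which overlap the ZnF4 mutant values (adjusted p = 0.999), and 8 and 6.5 RPKM of S1pr3 (log2 difference -0.01, adjusted p = 0.99). For Camk2b the ZnF1 mutant libraries were listed at 0.1 and 0 RPKM and both ZnF4 mutant libraries at 0 (adjusted p = 0.91). The ZnF1 mutant libraries had higher sums of monocyte markers, 1049 and 1112 RPKM, and of granulocyte markers in replicate 2, 1695 RPKM, and the part of these cells in the direct comparison was not tested.

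Promoters were searched for the core of the Ikaros recognition sequence, TGGGAA or CGGGAA, on both strands. The windows ran from 250 bases before to 50 bases after each RefSeq start (GRCm38.p6). One or both words were present in 45.7% of 164 promoters of 114 genes called higher, in 31.4% of 169 promoters of 115 genes called lower, in 39.9% of 11422 promoters of the 8967 tested genes that matched, and in 35.5% of all 32851 promoters. TGGGAA was present in 30.5% and 24.9% of promoters of higher and lower genes against 23% of tested genes, and CGGGAA in 22.6% and 10.1% against 21.5%. Of the named genes, 12 of 23 called higher and 5 of 19 called lower with a promoter in the table had at least 1 of the words, and Kit, Efna1, Hoxb8, Enpep, Il2ra and Cdhr2 had neither. These shares are descriptions of letters in the reference and show no binding. The promoters of Rag1 and Ly86, which rose, and of Gldc, which fell, are printed 5′ to 3′ on the gene's strand as examples with the word, chosen for holding 1 TGGGAA each, in capitals, which reads TTCCCA where it lies on the other strand.
Rag1 promoter, chr2:101649483-101649782, minus strand: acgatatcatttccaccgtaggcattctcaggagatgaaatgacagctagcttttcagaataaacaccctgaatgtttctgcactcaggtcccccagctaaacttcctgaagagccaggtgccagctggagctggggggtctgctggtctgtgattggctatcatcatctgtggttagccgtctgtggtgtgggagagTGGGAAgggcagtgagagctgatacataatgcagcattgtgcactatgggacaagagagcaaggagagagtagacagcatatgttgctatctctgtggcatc
Ly86 promoter, chr13:37345095-37345394, plus strand: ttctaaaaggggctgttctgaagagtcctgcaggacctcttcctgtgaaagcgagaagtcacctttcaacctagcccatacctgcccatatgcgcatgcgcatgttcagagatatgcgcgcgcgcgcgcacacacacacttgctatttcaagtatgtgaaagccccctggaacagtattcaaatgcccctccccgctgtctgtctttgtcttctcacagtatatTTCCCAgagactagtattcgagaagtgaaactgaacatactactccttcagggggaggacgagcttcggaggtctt
Gldc promoter, chr19:30175392-30175691, minus strand: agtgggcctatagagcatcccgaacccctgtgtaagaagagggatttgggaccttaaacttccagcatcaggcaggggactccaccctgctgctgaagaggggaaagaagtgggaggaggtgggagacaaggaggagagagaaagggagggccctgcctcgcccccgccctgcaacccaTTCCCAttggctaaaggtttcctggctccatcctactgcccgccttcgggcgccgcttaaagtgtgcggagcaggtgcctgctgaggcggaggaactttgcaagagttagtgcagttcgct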

How the data were processed

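The authors deposited RPKM per RefSeq transcript for 6 libraries, per the file headers, rounded to 1 decimal. TopHat, bedtools and the build mm9 are listed in the submitters' processing notes. Versions, strand use and the counting of overlapping or near-identical genes are not given in the sources used here. Overlapping genes (H19 and Mir675, Igf2 and Igf2as, Dlx1 and Dlx1as) are therefore uncertain. Depth is unknown, so no counting interval is given, and RPKM sums were 287007 to 345766 per library, with 10582 to 11119 genes at 1 RPKM or more.

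Rows of 26531 transcripts were added up by symbol to 22099 genes, after 39 of 40 symbols that had turned into numbers were restored by accession and 1 row without a gene was left out. Genes with at least 1 RPKM in 2 libraries entered a limma fit of log2(RPKM + 1) values (limma 3.58.1, R 4.3.3, intensity trend), as 3 group means over 6 libraries, two-sided, with Benjamini-Hochberg adjustment over all 11345 genes and a threshold of 0.05. Differences on this scale understate changes of genes with low values. There were 3 residual degrees of freedom. An exact permutation test of 2 against 2 cannot go below p = 0.3333. The code was tested on simulated data.

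The labels number the replicates, and libraries with the same number deviated from their groups alike, with correlations across genes of 0.50 (wt and ZnF1 mutant), 0.754 (wt and ZnF4 mutant) and 0.715 (both mutants). A second fit with that number as a block is given where it changes a call or a count by over 1.5 times.

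The comparison, the gene lists and the markers were chosen with earlier results of these data known. Named genes were the 15 largest called rises and falls with a higher mean of at least 5 RPKM, called list members (at most 6, or the member with the lowest p), the 10 most abundant called genes and Ikzf1, and 1 of the falls is not reported here. Others are said to be chosen after their values were seen, or are members of a fixed list. Other pseudocounts, filters, scalings, row choices and left-out libraries were tried. Promoters and miRNAs came from RefSeq tables of GRCm38.p6 and exons from GENCODE of GRCm38, matched by symbol, and no coordinate was taken from mm9.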

Additional observations from a re-analysis of the deposited data

How the results depend on the processing

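The 309 genes called in the ZnF4 mutant against wt became 259 to 335 with a pseudocount of 0.1 or 5, no filter, either scaling, the highest row per gene or no intensity trend. They became 176 with a filter of 5 RPKM, which tests fewer genes, 86 with the 4 libraries of the comparison alone, which leave fewer degrees of freedom, and 0 to 88 with 1 library left out. With the replicate block they became 1809, or 1773 with the block and the 4 libraries, and each of these fits held the 309. Without wt replicate 1 and ZnF1 mutant replicate 2, the libraries with most granulocyte transcripts, 0 were called (836 at an unadjusted p under 0.05), in an alternative chosen after seeing the data. The 609 genes of the ZnF4 against the ZnF1 mutant became 323 with the filter of 5 RPKM, 234 with 4 libraries, 3979 with the replicate block, 2381 with the block and 4 libraries, 0 to 262 with 1 library left out and 0 without the same 2 libraries (1452 at an unadjusted p under 0.05). Ikzf1 kept a log2 difference of 1.02 but missed the threshold with no filter (adjusted p = 0.0522), the filter of 5 RPKM (0.0528), quantile scaling (0.0749) and 4 libraries (0.107). It was 1.01 with median scaling (0.0525), 0.951 to 1.10 with 1 library left out and 1.05 without the 2 libraries (0.555). Of 67 other called and named genes, none changed direction in any setting run. A filter of 5 RPKM lost 4 of their calls and left some untested, no filter lost 16, the 4 libraries lost 34, and leaving out ZnF4 mutant replicate 1 lost 67. Hdc, a mast cell marker that was not called (log2 difference -0.88), ran from -2.17 to 0.398 with 1 library left out, was 0.398 without wt replicate 1, and was also 0.398 without the 2 libraries named above. In wt, replicate 1 held 5.5 RPKM and replicate 2 held 0.1 RPKM. The replicate block lost no call among the named genes. Depth is unknown and could limit genes near 1 RPKM. With 2 libraries in each group, a p-value reflects only how these libraries vary.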

Other observations

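Some gene families, grouped by name after their values were seen, held several called members, against 1.43% of all tested genes called higher and 1.3% called lower (8.02% and 7.92% with the replicate block). Guanylate binding proteins had 2 of 6 tested members called lower and 0 higher (5 lower with the replicate block), among them Gbp5 at 14.4 and 15.3 RPKM in wt, 4 and 5.6 RPKM in the ZnF4 mutant and 38.2 and 34 RPKM in the ZnF1 mutant. Receptors of the GPR series had 4 of 28 called lower and 1 higher (9 lower and 3 higher with the block). Gpr171 fell from 32.3 and 30.3 RPKM to 1.7 and 2 RPKM, and Gpr18 from 38.5 and 29.6 RPKM to 7.9 and 5 RPKM. P2ry10, a lysophospholipid receptor, fell from 7.8 and 9.9 RPKM to 0.4 and 0.8 RPKM. Nuclear factor I genes, which code for transcription factors, had 2 of 3 called higher and 0 lower (2 higher and 1 lower with the block). Nfia rose from 1.5 RPKM in both wt libraries to 9.9 and 8.1 RPKM, and Nfix from 2.8 and 2 RPKM to 20.6 and 12.3 RPKM. Sialyltransferases, which cap glycans with sialic acid, had 3 of 11 called higher and 0 lower. St6gal1 rose from 7.3 and 7.8 RPKM to 20.5 and 17.4 RPKM, and St3gal6 from 7 and 13.9 RPKM to 44.1 and 59.8 RPKM, with 27.4 and 39.8 RPKM in the ZnF1 mutant. Phosphodiesterases of cyclic nucleotides had 3 of 14 called lower and 0 higher (8 lower and 1 higher with the block). GIMAP GTPases had 1 of 8 called lower and 0 higher (1 lower and 1 higher with the block), and caspases had 1 of 8 called lower and 0 higher. Frizzled receptors had 1 higher and 1 lower of 4 (3 higher and 1 lower with the block).

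Other single falls, also chosen after their values were seen, were Arntl, the clock factor BMAL1, from 83.6 and 92.6 RPKM to 16.1 and 20 RPKM, with 28.1 and 31 RPKM in the ZnF1 mutant, and Dpp4, a surface peptidase, from 114.7 and 139.8 RPKM to 13.2 and 14.9 RPKM. Il33, an alarm cytokine, fell from 11.9 and 13.6 RPKM to 0.7 and 0.6 RPKM. Notch2, a receptor, rose from 3.7 and 3.2 RPKM to 8.6 and 7.7 RPKM, while Heyl, a target of Notch, fell from 8.1 and 5 RPKM to 0.3 RPKM in both mutant libraries. The Notch list had 1 of 17 called higher and 2 lower (2 higher and 5 lower with the block), against 1.43% and 1.3% of all tested genes (8.02% and 7.92% with the block).

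Called genes that neighbour each other among the tested genes, in RefSeq order on GRCm38.p6, made 28 of 11276 neighbouring pairs, with 13 pairs both higher, 6 both lower and 9 in opposite directions. In that order 11298 tested genes were placed, 308 of them called, and the number of pairs was not tested. The pairs with both higher included Hoxb8 and Hoxb7, Evc and Evc2, and Tnni2 and Lsp1, and those with both lower included Gbp5 and Gbp7, and Scn2b and Scn4b. H19 with Mir675, Igf2 with Igf2as and Dlx1 with Dlx1as were pairs of overlapping genes, whose values cannot be told apart. These pairs are included in the counts of pairs that moved the same way.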
